A study of Mus musculus with 3 samples.

Results

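H3K4me3-alone windows are stretches of 2 kb of the mouse genome that were called for H3K4me3 in fully-grown germinal vesicle (GV) oocytes, were not called for H3K27me3, and had a mean H3K36me3 value of 1 RPKM or less over 3 replicates. RPKM is the authors' name for their values, which are reads per window scaled to library depth and, by that name, to window length. The rule selected 169128 of 1186323 valid windows (14.3%), which together cover 338 Mb and make up 50.4% of the 335417 windows called for H3K4me3. The study profiled H3K36me3 with an ultra-low-input form of native ChIP-seq, where chromatin is precipitated uncrosslinked. The 3 replicates form a single group of wildtype oocytes of the C57BL6/Babr strain, each a pool of about 280 GV oocytes collected at day 25, without a second genotype or treatment. A pool shows an average over many oocytes, and a window with 2 marks may hold them in different cells. The H3K4me3 and H3K27me3 calls came from libraries published earlier by the same laboratory, as a single yes or no for each window. The paper reports high correlations between replicates of the histone marks, but the calls used here are not given per replicate.

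Recovered reads in all valid windows numbered 7888140, 2692510 and 3166564 for replicates 1, 2 and 3. A read was worth 0.136, 0.396 and 0.338 RPKM in replicates 1, 2 and 3, so that a value above 1 took 8 reads in replicate 1 and 3 reads in each of the others. Values of single windows are coarse at this depth, and levels are therefore given over many windows. Less antibody went into replicate 2. The sources used here do not say whether the pools came from separate mice, so the spread between replicates may be technical. H3K36me3 over 12 oocyte marker genes averaged 2.09 ± 0.19 RPKM (SD, n = 3), with all 12 above 1. Of 10 granulosa cell markers, 5 were above 1, with genes between 0.353 and 2.02 RPKM and a list mean of 0.951 ± 0.095 (SD, n = 3). As a background, 64.9% of protein-coding genes with at least 7 body windows, defined below, had a body mean above 1. The marker genes were not held to that minimum. Whether somatic cells or transcription in oocytes gave the signal of the granulosa cell markers was not tested.

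H3K4me3 is in most cells a mark of promoters, where it is placed by COMPASS-type methyltransferases. In oocytes it also spreads, largely through MLL2 (KMT2B), into broad domains that lack transcription and DNA methylation. H3K36me3 is placed over transcribed gene bodies by SETD2, which travels with RNA polymerase II, and guides DNA methylation there, whereas H3K27me3 is the repressive mark of Polycomb complexes.

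Stretches of 300 bases are shown to compare the sequence in 2 settings of these windows, the middle of long runs and CpG-rich gene starts. They were read from GRCm38 in the direction of the strand given, with each CpG in capitals. The first is the middle of the longest run (chr5:40712851-40713150, + strand), which lies in no annotated gene and holds 0 CpGs. The second is the middle of the longest run that holds a protein-coding gene start, that of Cd70 (chr17:57131851-57132150, + strand), also outside any gene at this point, with 1 CpG. The last 2 are the bases just before the annotated starts of Eef1a1 (chr9:78489152-78489451, - strand, 12 CpGs) and Ppia (chr11:6415143-6415442, + strand, 9 CpGs), 2 housekeeping genes with H3K4me3-alone runs that were long for the listed genes.
Middle of the longest run: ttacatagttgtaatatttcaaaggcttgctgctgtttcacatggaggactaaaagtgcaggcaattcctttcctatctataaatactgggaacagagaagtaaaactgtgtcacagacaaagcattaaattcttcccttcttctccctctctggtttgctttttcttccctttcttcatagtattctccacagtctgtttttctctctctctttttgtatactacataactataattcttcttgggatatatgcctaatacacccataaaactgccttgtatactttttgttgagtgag
Middle of the Cd70 run: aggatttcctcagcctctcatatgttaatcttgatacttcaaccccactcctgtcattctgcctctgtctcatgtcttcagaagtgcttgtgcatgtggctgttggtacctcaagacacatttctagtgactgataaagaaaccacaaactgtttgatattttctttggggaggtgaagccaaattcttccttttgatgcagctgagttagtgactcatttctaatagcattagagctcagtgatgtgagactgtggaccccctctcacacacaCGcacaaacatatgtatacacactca
Before the Eef1a1 start: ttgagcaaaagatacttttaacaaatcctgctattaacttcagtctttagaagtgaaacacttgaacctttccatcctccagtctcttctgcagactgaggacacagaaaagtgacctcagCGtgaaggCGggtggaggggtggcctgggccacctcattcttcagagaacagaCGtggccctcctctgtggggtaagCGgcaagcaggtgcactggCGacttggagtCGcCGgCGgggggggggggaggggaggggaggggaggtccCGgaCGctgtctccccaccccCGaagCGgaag
Before the Ppia start: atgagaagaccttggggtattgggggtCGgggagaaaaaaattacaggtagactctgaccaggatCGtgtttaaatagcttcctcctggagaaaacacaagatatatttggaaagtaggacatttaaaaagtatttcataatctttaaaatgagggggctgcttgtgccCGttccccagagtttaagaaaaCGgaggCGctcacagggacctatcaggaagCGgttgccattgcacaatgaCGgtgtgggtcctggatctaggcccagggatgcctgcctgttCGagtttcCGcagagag

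The H3K36me3 values of the windows describe the selection and are not a finding, since the rule used them. Replicates 1, 2 and 3 had means of 0.507, 0.388 and 0.327 RPKM. Replicate 1 was highest and replicate 3 lowest, although the means of all valid windows were close to equal in the 3 replicates (0.903, 0.900 and 0.903). The windows took 8.0%, 6.15% and 5.16% of the reads of replicates 1, 2 and 3. The median of the window means was 0.361, with 0.203 at the lower and 0.587 at the upper quartile. The median window had 3, 1 and 0 reads in replicates 1, 2 and 3, and 4284 windows (2.53%) had no read in any replicate. Although every mean was 1 or less, 26.4% of the windows were above 1 in a single replicate and 3.49% in 2 replicates. No gap in values separated the windows from their neighbours on the scale. Means from 0.95 to 1 were found in 3392 windows, and 3183 windows with the same calls lay just outside, at most 0.05 above 1. The inside group had 0.955, 1.07 and 0.905 RPKM in replicates 1, 2 and 3, against 0.998, 1.10 and 0.968 in the outside group.

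Most H3K4me3-alone runs were short, so the name broad domain fits only a part of them. Neighbouring windows joined into 76565 runs whose median length was 4 kb, and the longest spanned 58 kb. Single windows made up 49.4% of the runs and 22.4% of the windows. Runs of 5 or more windows (10 kb), called broad below, numbered 7505 and held 29.6% of the windows, and 724 runs reached 20 kb. The same share was 25.2% for windows with H3K4me3 and H3K27me3, 7.25% for windows with H3K36me3 and H3K4me3, and 49.3% for windows with H3K27me3 alone. It was 36.3% for windows without any mark and 71.8% for windows with H3K36me3 alone. The length depended on how runs were cut. When neighbours with any H3K4me3 call were joined, whatever their other marks, 56.6% of the H3K4me3-alone windows lay in runs of 10 kb or more and the longest such run reached 118 kb. The rule applied to 1 replicate at a time gave shorter runs, with 27.9%, 21.2% and 23.4% of windows in broad runs for replicates 1, 2 and 3. The chromosomes were alike in the share of windows taken by this category, from 11.7% on chromosome 17 to 17.1% on chromosome 19, with 13.4% on X.

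**Figure D1:**
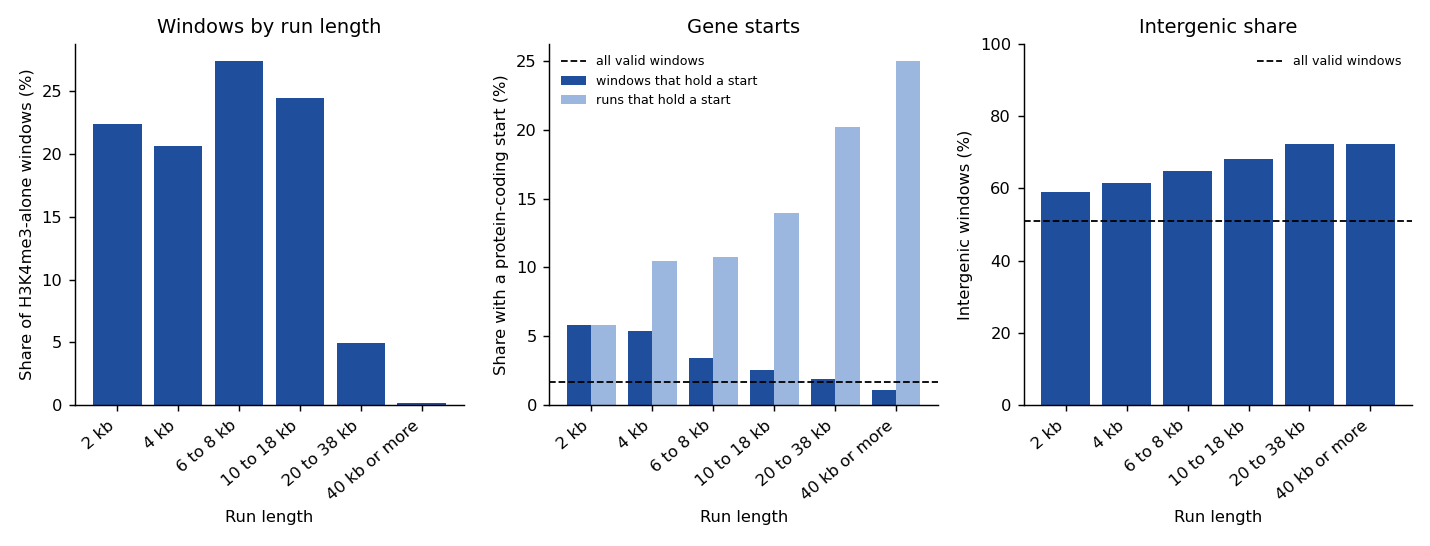
H3K4me3-alone windows by the length of their run (x axis, kb): the share of these windows (left, %), the share of windows and of runs with a protein-coding gene start (middle, %) and the share of intergenic windows (right, %), with all valid windows as a dashed line. Windows with a start fell from 5.83% in runs of 2 kb to 1.09% in runs of 40 kb or more, while runs with a start rose from 5.83% to 25.0% and the intergenic share from 59.0% to 72.4%. The 25.0% is 3 of 12 runs, and a longer run has more windows that can hold a start.

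The H3K4me3-alone windows lay mainly outside annotated genes and, at the same time, at gene starts more often than other windows. Of the windows, 64.1% had a midpoint in no annotated gene, against a background of 51.1% over all valid windows. A protein-coding start was found in 6866 windows, or 4.06% against a background of 1.65%, a ratio of 2.47. The remaining windows were genic without such a start (33.6%) or intergenic without one (62.3%). The start share and the intergenic share were above those of all valid windows on each of 20 chromosomes (19 autosomes and X). In single replicates the rule gave a start share of 4.05%, 4.04% and 4.00% and an intergenic share of 64.2%, 62.2% and 63.8% in replicates 1, 2 and 3. Windows with H3K4me3 and H3K27me3 had more starts and fewer intergenic windows (4.73% and 52.3%), as had windows with H3K36me3 and H3K4me3 (5.37% and 33.0%). Windows without any mark were more often intergenic (68.2%) and rarely held a start (0.638%). Genes came from GENCODE, and transcripts that only oocytes make were not considered, so a window called intergenic may lie in such a transcript.

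Of the 10 longest runs, 2 held a protein-coding start, and the others lay between genes, in long genes or over non-coding genes. The 2 longest, of 58 kb each, overlapped no annotated gene. The first, on chromosome 5 (chr5:40684001-40742000), lay 883 kb from the nearest protein-coding gene, Rab28. It had 0.417, 0.451 and 0.210 RPKM in replicates 1, 2 and 3 from 89, 33 and 18 reads, with replicate 3 lowest. H3K36me3 was uneven around it, with 0.405 RPKM in the 10 kb on its left and 1.27 on its right, where the next window carried both H3K36me3 and H3K4me3. The other 58 kb run (chr10:113270001-113328000) was the mirror image, with 1.41 RPKM on its left next to a window of that same pair of marks and 0.109 on its right. Another gene-free run (chr1:125462001-125502000, 40 kb), 26.3 kb from Actr3, had 1.55 on its left and 0.192 on its right. The remaining gene-free runs among the 5 longest, on chromosomes 12 and 3, had between 0.179 and 0.310 RPKM on either side. Of the long runs in genes, a run of 48 kb (chr7:50396001-50444000) lay wholly in an intron of Nell1, which codes for a secreted glycoprotein. It had 0.656, 0.231 and 0.423 RPKM in replicates 1, 2 and 3. A run of 40 kb (chr1:84614001-84654000) lay in Dner, which codes for a neuronal transmembrane protein with EGF-like repeats, and exons made up 0.610% of it.

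The longest runs with a protein-coding start belonged to genes of varied function. The run of Cd70, a TNF-family ligand of immune cells, spanned 44 kb (chr17:57110001-57154000) with 0.451, 0.270 and 0.169 RPKM in replicates 1, 2 and 3. Fmn2 codes for a formin that nucleates actin and is needed to position the spindle in oocytes, and its run spanned 42 kb (chr1:174466001-174508000) with 0.504, 0.340 and 0.274 RPKM. In both runs replicate 1 was highest and replicate 3 lowest. Genes made up 9.34% of the Cd70 run and 14.7% of the Fmn2 run, so most of each lay outside the gene.

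The side of the gene body was often the one with H3K36me3 at these long runs. Ifnar1, a subunit of the type I interferon receptor, had a run of 40 kb with 0.235 RPKM in the 10 kb upstream and 2.55 downstream. Iqgap1, a cytoskeletal scaffold protein, had 0.355 upstream and 2.05 downstream of a run of 38 kb. Mob1b, a co-activator of Hippo pathway kinases, had 0.432 upstream and 2.08 downstream of a run of 34 kb. Exceptions were found. Prdx1, a peroxide-reducing enzyme, had 2.53 upstream and 2.39 downstream. Phactr4, a regulator of protein phosphatase 1, had 1.22 upstream and 0.929 downstream. Fmn2 was low on both sides, with 0.226 upstream and 0.319 downstream. These flank values are means over the 3 replicates of at most 5 windows a side.

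Where a run held the start of a protein-coding gene, more of it lay upstream of the start than downstream on average. Over 5991 starts in runs whose starts had 1 strand, the run extended 2.66 kb upstream of the start window and 1.06 kb downstream on average. Of these starts, 2669 had more of the run upstream, 1029 more downstream and 2293 equal parts. In broad runs the extent was 8.96 kb upstream and 3.20 kb downstream, and 747 of 1024 starts had more of the run upstream, against 216 with more downstream and 61 with equal parts. By the rule a run ends where the mean H3K36me3 value passes 1, where H3K27me3 is called or where H3K4me3 is not, so the extent is a description with no test.

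Within the H3K4me3 categories compared by place, CpG content differed more between start windows and other windows than between categories. Start windows without H3K4me3 were not looked at apart. CpG observed over expected is the number of CpG sites in a window over the number its C and G content would give by chance. It averaged 0.195 in H3K4me3-alone windows, 0.177 in all valid windows, 0.140 in windows without any mark and 0.248 in windows with H3K4me3 and H3K27me3. H3K4me3-alone start windows averaged 0.526 with 74.8 CpGs per window, above the 0.430 of all start windows. The intergenic ones averaged 0.171 with 15.4 CpGs, close to the 0.157 of all intergenic windows. The shown stretches differ in the same direction, from 0 and 1 CpG in the middle of long runs to 9 and 12 before gene starts. Along run length the value fell from 0.207 in runs of 2 kb to 0.173 in runs of 40 kb or more. Repeats, as marked in lower case in the reference, made up 29.3% of the bases, close to the 30.8% of all valid windows. The share was 46.3% in windows without any mark and 20.1% in windows with H3K4me3 and H3K27me3.

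**Figure D2:**
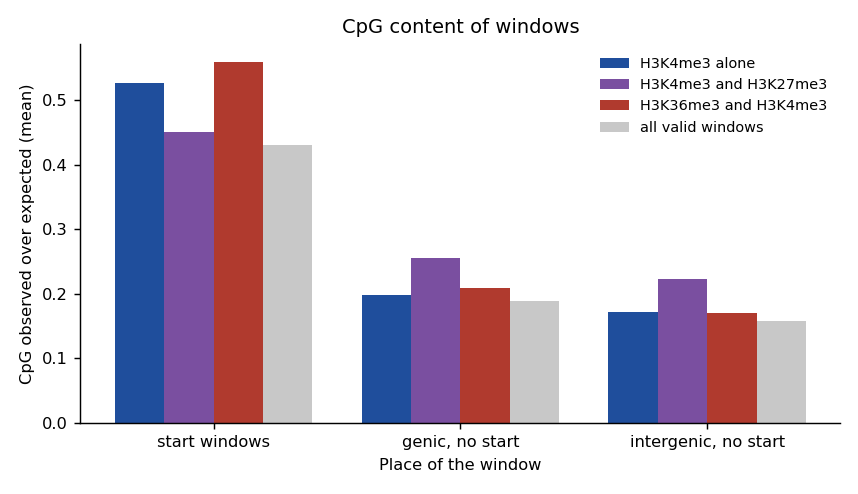
Mean CpG observed over expected (y axis) of windows that hold a protein-coding start, lie in a gene or lie between genes (x axis), for H3K4me3-alone windows, the other 2 H3K4me3 categories and all valid windows. H3K4me3-alone windows had 0.526 at starts and 0.171 between genes, and the order of the places was the same in each category shown.

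The next question was how much H3K36me3 borders the runs. Of the windows next to a run end, 40.4% had no mark, 20.9% had H3K4me3 and H3K27me3, 17.1% had H3K36me3 and H3K4me3, and 10.2% had H3K36me3 alone. Over all valid windows these categories made up 26.6%, 8.94%, 4.56% and 24.6%. A window next to a run end cannot itself be H3K4me3-alone, which leaves more room for the other categories. An H3K36me3-enriched window, one with a mean above 1, was found within 10 kb on both sides of 29.9% of the runs, on 1 side of 32.5% and on neither side of 37.7%. These shares count any of up to 5 windows a side, and no matching share was taken for other runs. Per single window, the background over all valid windows is 31.8%, and 29.9% of the windows directly outside a run were enriched. These 2 shares are not alike, since a window directly outside a run cannot be H3K4me3-alone. The background includes the H3K4me3-alone windows, none of which is enriched by the rule. At 3 and 9 kb from the run end, where such windows can occur, 25.5% and 26.6% of the windows were enriched. H3K4me3-alone windows made up 20.4% and 22.7% there, against 14.3% of all valid windows.

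The 10 kb flanks had 0.768, 0.747 and 0.735 RPKM in replicates 1, 2 and 3. Flanks of runs with H3K4me3 and H3K27me3 had 0.529, 0.503 and 0.416. All 3 replicates were higher around H3K4me3-alone runs and the values did not overlap. The log2 ratio was 0.64 ± 0.16 (SD, n = 3), with p = 0.25 (exact permutation test by sign flips over replicates, two-sided). This is the smallest p that 3 replicates allow, so no comparison of this kind can reach 0.05. The ratio was 0.42 ± 0.12 (SD, n = 3) for broad runs. Against all valid windows the flanks were lower, with a log2 ratio of -0.27 ± 0.03 (SD, n = 3). Against the flanks of unmarked runs the ratio was 0.11 ± 0.02 (SD, n = 3), and 0.88 ± 0.06 (SD, n = 3) when broad runs of both kinds were compared. Flanks of broad unmarked runs had 0.410 ± 0.026 RPKM (SD, n = 3). Away from the run end the level rose slowly, from 0.711 ± 0.022 RPKM (SD, n = 3) at 1 kb to 0.832 ± 0.015 (SD, n = 3) at 19 kb, where it was still below the mean of all windows.

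**Figure D3:**
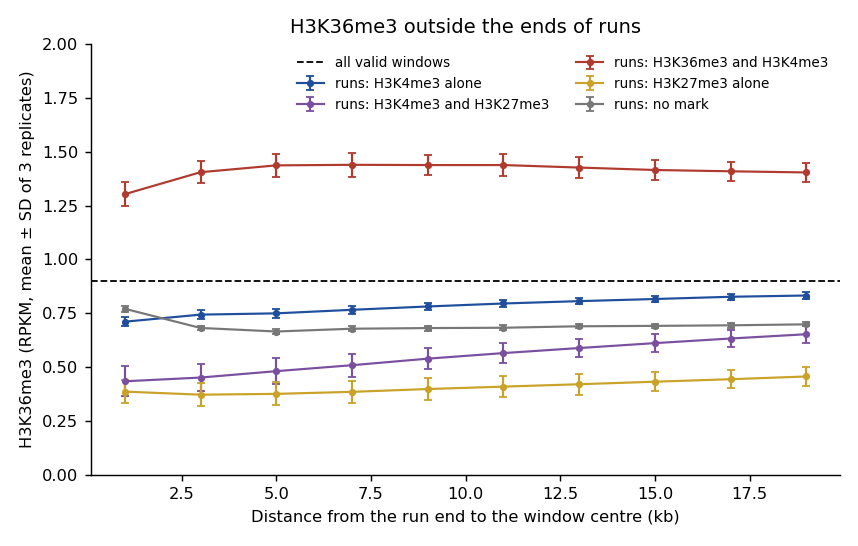
H3K36me3 (y axis, RPKM, mean and SD of 3 replicates) in windows outside the ends of runs, by distance from the run end (x axis, kb), for 5 categories of runs, with the mean of all valid windows dashed. H3K4me3-alone runs lay between 0.711 and 0.832, below the mean of all windows and above runs with H3K4me3 and H3K27me3.

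The level of the flanks depended on where the run lay. Runs with a protein-coding start (6609) had flanks of 1.24, 1.24 and 1.28 RPKM in replicates 1, 2 and 3, and 52.9% of their flank windows were enriched. Runs wholly between genes (42851) had 0.647, 0.629 and 0.599, with 19.8% enriched. The 2 sets did not overlap in any replicate, with a log2 ratio of 1.00 ± 0.08 (SD, n = 3, exact sign-flip permutation p = 0.25). Runs inside genes without a start (25193) lay between, with 0.842, 0.809 and 0.815. An enriched window within 10 kb was found on at least 1 side of 91.1% of the runs with a start, 67.9% of the runs inside genes and 54.3% of the runs between genes. These shares count any of up to 5 windows a side and have no matching background. Genic windows as a whole have more H3K36me3 than intergenic ones, with 1.26 ± 0.03 against 0.569 ± 0.023 RPKM (SD, n = 3) for windows without a start.

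At gene starts the flanks were uneven, with more H3K36me3 on the side of the gene. For 5879 runs whose starts all had 1 strand, the downstream 10 kb had 1.47, 1.49 and 1.57 RPKM in replicates 1, 2 and 3. The upstream 10 kb had 0.913, 0.894 and 0.876. Every replicate was higher downstream and the sides did not overlap, with a log2 ratio of 0.75 ± 0.08 (SD, n = 3) and an exact sign-flip permutation p of 0.25. The window just downstream was enriched at 70.0% of these runs and the window just upstream at 36.6%. A further 730 runs held starts of both strands and were left out of this comparison.

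**Figure D4:**
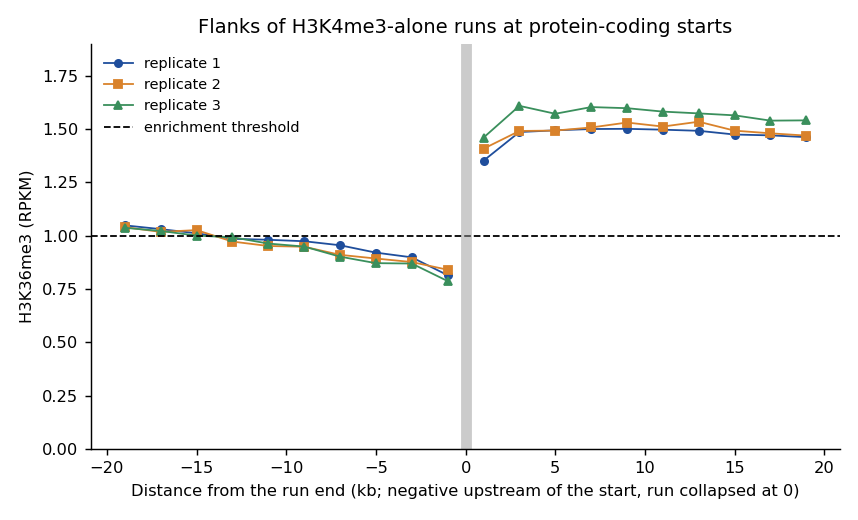
H3K36me3 (y axis, RPKM) in each replicate by distance from the end of H3K4me3-alone runs at protein-coding starts (x axis, kb, upstream negative), with the run drawn as a grey line and the enrichment threshold of 1 dashed. Nearest to the run the replicates had 0.815, 0.840 and 0.787 upstream and 1.35, 1.41 and 1.46 downstream.

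Genes were then taken by the marks of their start window. Of 20788 protein-coding starts in valid windows, 7505 lay in an H3K4me3-alone window (36.1%) and 1255 in a broad run (6.04%). Gene bodies were read from 6 kb past the start window in genes with at least 7 such windows, a comparison chosen after the data had been seen. The 4418 genes with an H3K4me3-alone start had 1.77, 1.80 and 1.91 RPKM in replicates 1, 2 and 3. The 3005 genes whose start carried H3K4me3 and H3K27me3 had 0.808, 0.780 and 0.753. The log2 ratio was 1.23 ± 0.11 (SD, n = 3, exact sign-flip permutation p = 0.25), and every replicate of the first set was above every replicate of the second. A body mean above 1 was found in 86.1% of the genes with an H3K4me3-alone start, against a background of 64.9% over all such genes and 26.7% of those with both H3K4me3 and H3K27me3. Genes with H3K36me3 at the start besides H3K4me3 had the highest bodies, with 2.11, 2.22 and 2.30 RPKM. Genes with an H3K4me3-alone start in a broad run had 1.67, 1.69 and 1.81.

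**Figure D5:**
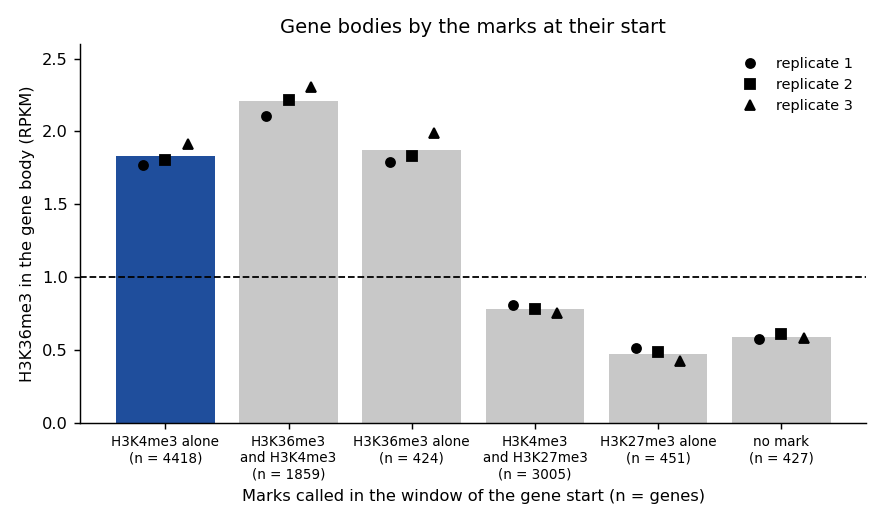
H3K36me3 in gene bodies (y axis, RPKM; bars are means of 3 replicates, symbols the replicates) by the marks called in the window of the gene start (x axis, with the number of genes). Genes with an H3K4me3-alone start lay between 1.77 and 1.91 in the replicates, and genes with H3K4me3 and H3K27me3 starts between 0.753 and 0.808.

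Named genes showed which kinds of start fall in this category, to be read against the background of 36.1% of protein-coding starts. Of 16 housekeeping genes, 11 had an H3K4me3-alone start window (68.8%), of 20 oocyte genes 4, of 16 lineage regulators 0, of 8 tissue-specific genes 1 and of 12 maternally methylated imprinted genes 3. Starts of 14 oocyte genes carried H3K36me3 besides H3K4me3, where the background is 16% of protein-coding starts. Starts of 13 lineage regulators carried H3K4me3 and H3K27me3, against a background of 24.9%. The lists are small, the imprinted list includes genes that are not protein-coding (Kcnq1ot1 and Airn), and no test was made.

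Among the housekeeping genes, Eef1a1, which codes for a translation elongation factor, had the longest run (12 kb, chr9:78488001-78500000). Its start window had 0.543 RPKM in replicate 1 and 0 in replicates 2 and 3. Ppia, the gene of the proline isomerase cyclophilin A, and Pgk1, a glycolytic enzyme, had runs of 8 kb. The Ppia start window had a value above 0 in replicate 2 only (0.396). Others in the list were Actb (cytoskeletal actin), Rplp0 (a ribosomal protein), B2m (a subunit of MHC class I), Tubb5 (a tubulin), Tbp, Sdha and Polr2a, with runs of 2 to 4 kb. The housekeeping genes with such a start and at least 7 body windows were Tbp, Polr2a and Sdha, and their body means were above 1. Their start windows had means of 1 or less by the rule. Among genes with fewer body windows, the body mean was 2.09 RPKM in Pgk1, 1.03 in Tubb5, 0.968 in B2m and 0.806 in Eef1a1. Tbp, the TATA-binding protein, had 0.679, 0.793 and 0 RPKM at the start and 2.12, 2.07 and 2.00 in the body in replicates 1, 2 and 3. Polr2a, the largest subunit of RNA polymerase II, had 0.951, 0.396 and 0.677 at the start and 2.37, 2.41 and 3.51 in the body. Sdha, a subunit of succinate dehydrogenase, had 0.272, 1.19 and 0 at the start and 2.35, 2.28 and 2.76 in the body, with replicate 2 above 1 at the start. All replicates of these 3 bodies were above 2.

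The 4 oocyte genes with such a start were Gdf9, a growth factor secreted by oocytes, Oosp1, a secreted oocyte protein, Npm2, a histone chaperone of the egg, and Zar1, which binds stored maternal mRNA. Gdf9 and Oosp1 lay near the threshold. The Gdf9 start window had 1.36, 1.19 and 0.338 RPKM in replicates 1, 2 and 3, a mean of 0.962 from 14 reads. Oosp1 had 0.951, 0.396 and 1.35, a mean of 0.900 from 12 reads. Npm2 and Zar1 were lower, with means of 0.272 and 0.223.

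Of the imprinted genes, Mest, Plagl1 and Impact had an H3K4me3-alone window at the 5′ end of the gene record, which need not be the imprinted promoter. Mest, a hydrolase-like protein, had 0.815, 0 and 0.677 RPKM there and 2.47, 3.24 and 3.08 in the body. Plagl1, a zinc finger transcription factor, had 0.815, 0.793 and 1.02, and 2.57, 2.59 and 3.41 in the body. Impact, a regulator of translation, had a run of 12 kb and 2.28, 2.66 and 3.01 in the body. Starts of 8 of the 12 imprinted genes carried H3K36me3 alone, against a background of 5.22% of protein-coding starts. Among these 8, Kcnq1ot1 and Airn are antisense genes and are not part of that background. Ckm, the creatine kinase of muscle, was the tissue-specific gene in the category, with 0.640, 0.227 and 0.242 RPKM in the body, all below 1.

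Inside broad runs the H3K36me3 level was lower away from the ends. The end windows had 0.507, 0.396 and 0.333 RPKM in replicates 1, 2 and 3 (mean 0.412 ± 0.088, SD, n = 3). The windows next to them, in the same runs, had 0.468, 0.372 and 0.288 (mean 0.376 ± 0.090). The fifth windows from the nearer end had 0.447, 0.355 and 0.274 (mean 0.359 ± 0.087). Only the longer broad runs have such a window (1857 windows, against 15010 end windows), so this last set does not come from all the same runs. Each replicate was lower inside, by less than the replicates differed among themselves, and since the same values chose the windows no test was made.

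To obtain a level that the rule did not use, windows were chosen on 2 replicates and read in the other. Their H3K36me3 value was then 0.546, 0.481 and 0.406 RPKM in replicates 1, 2 and 3, and between 12.1% and 17.0% of them were above 1. Windows with H3K4me3 and H3K27me3 chosen in the same way had 0.469, 0.425 and 0.299. H3K4me3-alone windows were higher within every replicate, with a log2 ratio of 0.28 ± 0.14 (SD, n = 3, exact sign-flip permutation p = 0.25), but the ranges of the 2 sets overlapped across replicates. Unmarked windows had 0.464, 0.401 and 0.401. The log2 ratio against them was 0.17 ± 0.13 (SD, n = 3, exact sign-flip permutation p = 0.25). It was 0.54 ± 0.14 (SD, n = 3) in broad runs and 0.34 ± 0.15 (SD, n = 3) in intergenic windows, but -0.12 without replicate 1 and -0.07 when windows with no read were left out. The sign of the difference from unmarked windows therefore depended on the windows and replicates used.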

How the data were processed

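H3K36me3 was profiled in 3 replicates of GV oocytes. The authors trimmed reads, mapped them to GRCm38 with Bowtie2 2.2.9 per the labels, and counted them over 2 kb windows, leaving out windows with extreme input values. Duplicate removal is not given in the sources used here. The deposited RPKM values, on a linear scale and per replicate, were whole multiples of the value of 1 read, and dividing by it gave reads. The value of 1 read implies rounded library totals of 7364000, 2523000 and 2955000 reads if values were not divided by window length, and of 3682000, 1261000 and 1477000 if they were. The reads recovered in windows were 1.07 times the first totals and 2.14 times the second, so the values lie nearer to scaling by depth alone, and neither scaling was exact. All windows have 1 length, so no ratio depends on this. A second deposited table names the marks called per window. Its H3K36me3 call equalled a mean above 1 in every valid window.

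The windows and gene lists were chosen with earlier results of these data known. Runs are neighbouring windows of 1 category. A start is the 5′ end of a GENCODE M21 protein-coding gene record on GRCm38 (21951 of 55450 genes), and a window is intergenic when its midpoint lies in no annotated gene. All windows lay within the chromosomes. Named genes were those of the 10 longest runs, the 10 longest with a start, the 5 longest in no gene, and 5 gene lists, with list genes whose start is in the category described first. Sequences came from RefSeq's GRCm38.p6 assembly. The design centred 2 of them on a gene start, and the 300 bases before the start were taken instead so that no transcribed base is shown. Their genes had the longest runs of the listed genes on the chromosomes used for sequences, which left out Impact, and Ppia tied with Pgk1 and came first in the list. Ratios were taken as log2 of mean RPKM within a replicate, with no pseudocount, and tested two-sided by exact permutation of signs over replicates (sign-flip test), whose smallest p is 0.25. No p-values were adjusted, since none can pass. Run and flank calculations were tested on simulated windows. Python 3.11.15, NumPy 2.4.6 and pandas 2.3.3 were used. Alternatives covered thresholds, run joining, start and gene definitions, flank width, summary, pseudocount and leaving out each replicate. The values of 1 listed gene are not reported here.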

Additional observations from a re-analysis of the deposited data

How the results depend on the processing

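Of 81 recomputed values, 65 kept their direction (ratios), stayed within 1 SD between replicates (shares) or within 1.5 times (counts), 14 moved and 2 reversed. A threshold of 0.5 left 112637 windows. The share in broad runs was 43.5% with a single other window bridged, 13.4% at 0.5, 34.0% at 1.5 and 56.6% with any H3K4me3 window joined, an alternative chosen after seeing the data. The start share was 6.77% with starts of all genes (3.91% of all windows), 4.94% with every protein-coding transcript (2.6%) and 9.02% counting neighbouring windows (4.80%), and between 4.02% and 4.08% with 1 replicate left out. The intergenic share was 59.9% when no gene may touch the window (48.5% of all windows) and 71.5% for protein-coding genes only (57.8%). CpG observed over expected was 0.181 without start windows, 0.185 in broad runs and 0.207 in single windows. The held-out log2 ratio to unmarked windows reversed to -0.065 without windows of no read and ranged from -0.12 to 0.11 with 1 replicate left out. The cause was not tested.

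The other 39 recomputed log2 ratios kept their sign, and none could reach 0.05 with 3 replicates. A pseudocount of 1 RPKM lowered the flank ratio to H3K4me3 and H3K27me3 runs to 0.24, and the median over genes raised the gene body ratio to 1.78. The flank ratio of medians was not run because a median was 0. Alternatives for gene bodies, for the gene lists and for subsets of flanks were also chosen after seeing the data. At a few reads per window, calls of single windows are uncertain, and H3K4me3 and H3K27me3 calls have no replicates. The design has no second group whose samples a replicate number could pair. Ratios between sets of windows were taken within each replicate, which pairs the sets by replicate.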
